A study of Mus musculus with 7 samples.

Results

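The 10 genes described here encode 6 secreted proteases of the ADAMTS family (Adamts1, Adamts2, Adamts4, Adamts5, Adamts9 and Adamts12) and the 4 tissue inhibitors of metalloproteinases (Timp1, Timp2, Timp3 and Timp4). They were taken by gene symbol from the Tnc-/- count files and by the same Ensembl identifiers from the wild-type files, and are 10 of the 56854 gene identifiers listed in all 7 files. Of the 10 genes, 7 had counts and passed the filter on low counts, and Timp1, Timp3 and Timp4 were listed at 0 in every library. Their identifiers in the files are ENSMUSG00000022893 (Adamts1), ENSMUSG00000036545 (Adamts2), ENSMUSG00000006403 (Adamts4), ENSMUSG00000022894 (Adamts5), ENSMUSG00000030022 (Adamts9), ENSMUSG00000047497 (Adamts12), ENSMUSG00000001131 (Timp1), ENSMUSG00000017466 (Timp2), ENSMUSG00000020044 (Timp3) and ENSMUSG00000030317 (Timp4).

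RNA sequencing was done on whole shoulder joints of mice, 1 library per mouse, 2 weeks after the supraspinatus tendon, one of the rotator cuff tendons, had been repaired in the left shoulder. Wild-type mice (n = 3) were compared with Tnc-/- mice (n = 4), whose genotype deletes tenascin C, a matrix glycoprotein; all 7 mice had the repair, and no unoperated joint was analysed here. The strain, age and sex of the mice and the construction of the Tnc allele are not given in the sources used here. The libraries are bulk RNA of a whole joint, so fewer cells of a type and less RNA per cell cannot be told apart.

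ADAMTS proteases are secreted zinc enzymes whose thrombospondin-type repeats hold them in the extracellular matrix. Adamts1, Adamts4, Adamts5 and Adamts9 can cleave the large aggregating proteoglycans aggrecan and versican, and Adamts4 and Adamts5 are known as the aggrecanases of cartilage. Adamts2 removes the amino-terminal propeptide of fibrillar procollagens, a step needed for collagen fibrils to assemble, and Adamts12 can cleave cartilage oligomeric matrix protein. TIMPs bind the active site of matrix metalloproteinases and of some ADAM and ADAMTS enzymes, and Timp3, which stays bound to matrix, is the main inhibitor of Adamts4 and Adamts5.

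Libraries held between 13464057 and 28191101 gene counts. Tnc itself had CPM (counts scaled to the library's total) of 433.7, 290.0 and 325 in the wild-type mice and 33.1, 38.6, 39.6 and 54.6 in the Tnc-/- mice, a log2 fold change of -3.08 (SE 0.21, adjusted p = 2.8e-04, edgeR quasi-likelihood test). CPM here use library totals scaled by trimmed mean of M values (TMM), and a positive fold change means a higher level in Tnc-/-. The wild-type and the Tnc-/- files listed different identifier sets, so effects of how each set was counted and effects of genotype cannot be told apart. Wild-type libraries 2 and 3 stood apart: the 1775 genes for olfactory and vomeronasal receptors, which work mainly in sensory neurons of the nose, summed to 1292 and 914 CPM there, against 85.0 in wild-type library 1 and 35.7 to 43.2 in the 4 Tnc-/- libraries. Marker sums also differed between genotypes. Erythroid genes summed to 4304 to 8360 CPM in wild type and 12198 to 24222 in Tnc-/-, with 3 of 5 called higher and Alas2 at 0. Neutrophil genes were at 2312 to 4734 against 5239 to 8836, with 3 of 5 called higher. Skeletal muscle genes were at 18170 to 23855 against 25666 to 37815, with only 1 of 5 called higher. Endothelial genes were lower in Tnc-/-, at 482 to 537 against 381 to 475, with 2 of 5 called lower. Cartilage markers overlapped between genotypes (1349 to 2291 CPM against 1204 to 3374). Tendon and fibroblast markers overlapped too (1461 to 1796 against 1380 to 2276), with Scx at 0 and 1 of 5 called lower.

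The promoters of 4 genes are shown because the first 3 genes varied together across the libraries and the last did not follow them. Each run is the 250 bases before the RefSeq transcript start on the gene's own strand, from GRCm38.p6: chr16:85803114-85803363 on the minus strand for Adamts1, chr11:50601835-50602084 on the plus strand for Adamts2, chr11:118355412-118355661 on the minus strand for Timp2 and chr15:11064523-11064772 on the plus strand for Adamts12. Capitals mark the TATA box letters TATAAA, the GC box letters GGGCGG and the AP-1 letters TGAGTCA, on either strand.
Adamts1: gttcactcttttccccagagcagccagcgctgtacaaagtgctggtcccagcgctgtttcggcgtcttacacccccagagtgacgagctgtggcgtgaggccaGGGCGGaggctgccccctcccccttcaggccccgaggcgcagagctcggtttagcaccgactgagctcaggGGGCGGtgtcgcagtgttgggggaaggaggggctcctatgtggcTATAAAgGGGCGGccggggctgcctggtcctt
Adamts2: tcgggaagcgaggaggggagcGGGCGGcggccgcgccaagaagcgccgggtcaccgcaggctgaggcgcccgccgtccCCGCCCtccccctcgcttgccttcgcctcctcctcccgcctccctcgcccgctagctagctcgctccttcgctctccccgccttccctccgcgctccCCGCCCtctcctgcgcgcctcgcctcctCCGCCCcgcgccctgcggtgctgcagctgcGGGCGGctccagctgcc
Timp2: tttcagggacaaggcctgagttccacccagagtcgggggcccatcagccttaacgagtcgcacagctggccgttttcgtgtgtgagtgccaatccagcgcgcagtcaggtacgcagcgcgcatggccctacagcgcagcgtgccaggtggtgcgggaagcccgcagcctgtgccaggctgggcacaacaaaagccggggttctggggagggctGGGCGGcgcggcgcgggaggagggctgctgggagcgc
Adamts12: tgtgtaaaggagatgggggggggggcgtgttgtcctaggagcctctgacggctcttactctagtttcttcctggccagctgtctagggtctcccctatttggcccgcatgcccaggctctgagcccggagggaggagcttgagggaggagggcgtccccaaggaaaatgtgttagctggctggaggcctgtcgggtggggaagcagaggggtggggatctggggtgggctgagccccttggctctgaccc

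Of the 10 genes, 8 were matched to a promoter in this table. The Adamts1 window held 1 TATA box and 3 GC boxes, that of Adamts2 held 5 GC boxes, that of Timp2 held 1 GC box, and that of Adamts12 held none of the 3 letter runs. Among 32851 promoter windows of the same length, 12.4% held TATAAA, 32.7% held GGGCGG and 4.46% held TGAGTCA. The window of Adamts9, which did not follow the first 3 genes either, held 1 GC box. A match describes the letters and not a used site, and a link to the shared variation was not tested.

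Timp1, Timp3 and Timp4 had 0 counts in all 7 libraries, and were not tested. A count of 0 allows up to 3 counts, which is 0.110 to 0.198 CPM depending on the library, a limit that covers counting error only. In the GENCODE M21 annotation every exon base of Timp1 lies inside the span of Syn1, every exon base of Timp3 inside Syn3, and every exon base of Timp4 inside Syn2, each time on the other strand from the synapsin gene. Synapsins are proteins of synaptic vesicles in neurons. The share of TIMP exon bases that also overlap an exon of the synapsin gene was 0% for Timp1 with Syn1, 21.3% for Timp3 with Syn3 and 1.53% for Timp4 with Syn2, so most of the TIMP exon sequence lies in synapsin introns. Timp4 also lies inside the span of Gm17482, with 0% of its exon bases in exons of that gene.

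Across protein-coding genes, a listing at 0 was most frequent in this position. Of 1409 genes with every exon base inside another gene's span, 1146 (81.3%) had 0 counts in all 7 libraries, against 2046 of 13980 genes (14.6%) with no such base. Among the nested genes whose host lies on the other strand, as for the 3 TIMPs, 688 of 771 (89.2%) were at 0, and of those with no base in a host exon 401 of 455 (88.1%) were at 0. Other genes in this position were 0 in every library too: Scx, a transcription factor of tendon cells, lies inside Bop1, Alas2, the first enzyme of haem synthesis in red cells, lies inside Apex2, and Mmp19 lies inside Gm47093. These values describe the files as listed. They give no level for Timp1, Timp3 or Timp4 in either genotype, and the settings used to count overlapping genes are not given in the sources used here.

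**Figure D1:**
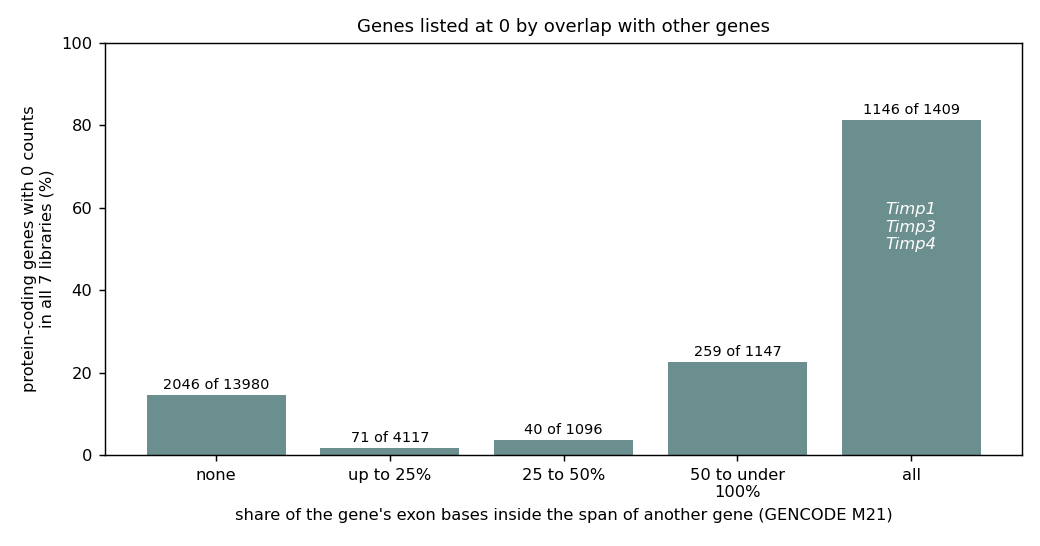
Protein-coding genes with 0 counts in all 7 libraries, as a percent of the genes in each class (vertical axis), by the share of a gene's exon bases inside the span of another gene (horizontal axis); the numbers above the bars are genes at 0 of genes in the class. The bar for genes wholly inside another gene, which holds Timp1, Timp3 and Timp4, stands at 81.3%, and the bars for the partly overlapping classes lie between 1.72% and 22.6%.

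The host genes had counts in every library. Syn1 had 4.85, 13.4 and 13.5 CPM in wild type and 4.995 to 6.96 in Tnc-/-. Syn2 was at 1.71, 11.7 and 5.91 in wild type and at 2.31 to 4.32 in Tnc-/-. Syn3 was at 6.02, 52.6 and 40.6 in wild type and at 2.39 to 3.84 in Tnc-/-, and was the 1 synapsin gene called (log2 fold change -3.36, SE 0.61, adjusted p = 0.00798 by edgeR; Syn1 -0.82, adjusted p = 0.155; Syn2 -1.05, adjusted p = 0.226). All 3 were higher in wild-type libraries 2 and 3, the libraries with the high receptor sums, than in wild-type library 1.

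Timp2, the inhibitor that also takes part in activating pro-MMP2 at the cell surface, was the only TIMP with counts and the most abundant of the 7 genes with counts. Wild-type libraries 1 to 3 had 1470.4, 1167 and 1352 CPM and Tnc-/- libraries 1 to 4 had 1114, 1156, 1289 and 1852. The 3 wild-type libraries lay inside the range of the Tnc-/- ones, of which library 4 was highest. The log2 fold change was 0.02 (SE 0.22, 95% interval -0.48 to 0.53, adjusted p = 0.945, edgeR), with means of 1329.9 ± 153 CPM (SD, n = 3) and 1353 ± 341 (SD, n = 4). Cep295nl, which lies wholly inside Timp2, had 0 counts in every library.

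Of the 4 proteoglycan-cleaving enzymes, 0 passed the edgeR test between genotypes. Adamts1 was at 54.2, 44.7 and 48.7 CPM in wild type and at 41.0, 48.6, 53.1 and 61.5 in Tnc-/-. The wild-type libraries lay within the Tnc-/- range, and the log2 fold change was 0.05 (SE 0.16, 95% interval -0.31 to 0.41, adjusted p = 0.832). Adamts4 was at 9.11, 8.98 and 11.3 CPM in wild type and at 7.64, 9.29, 10.3 and 14.8 in Tnc-/-, with Tnc-/- library 4 highest again (log2 fold change 0.10, SE 0.30, 95% interval -0.58 to 0.78, adjusted p = 0.826). Adamts9, which also acts in the secretory pathway of cells, was at 17.4, 13.9 and 17.6 CPM in wild type and at 15.9, 19.6, 15.3 and 17.2 in Tnc-/-. These ranges overlapped, and the log2 fold change was 0.06 (SE 0.19, 95% interval -0.37 to 0.49, adjusted p = 0.829).

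Adamts5, the main aggrecanase of mouse cartilage, was at 54.4, 34.4 and 50.8 CPM in wild type and at 35.3, 39.6, 41.3 and 36.5 in Tnc-/-. Wild-type libraries 1 and 3 were above all Tnc-/- libraries and wild-type library 2 was below all of them. The log2 fold change was -0.29 (SE 0.17, 95% interval -0.68 to 0.11, adjusted p = 0.242, edgeR), with means of 46.5 ± 10.7 CPM (SD, n = 3) and 38.2 ± 2.74 (SD, n = 4). The test result depended on single wild-type libraries: without library 2 the log2 fold change was -0.48 (adjusted p = 0.0429, with 15.7% of all genes called), and without library 1 it was -0.07.

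Adamts12, which cleaves cartilage oligomeric matrix protein, was at 48.8, 33.9 and 42.7 CPM in wild type and at 26.2, 36.8, 30.5 and 33.2 in Tnc-/-. Wild-type libraries 1 and 3 were above all Tnc-/- libraries, and wild-type library 2 fell between the Tnc-/- values. The log2 fold change was -0.40 (SE 0.18, 95% interval -0.80 to -0.0019, unadjusted p = 0.0491, adjusted p = 0.117, edgeR), the smallest p of the members, with means of 41.8 ± 7.496 CPM (SD, n = 3) and 31.7 ± 4.50 (SD, n = 4). Without wild-type library 1 the log2 fold change was -0.18.

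Adamts2, the procollagen amino-propeptidase, was the most abundant of the ADAMTS members, at 252, 198 and 241 CPM in wild type and 214, 228, 247 and 308 in Tnc-/-. The groups overlapped, with Tnc-/- library 4 above all wild-type libraries and wild-type library 2 lowest. The log2 fold change was 0.11 (SE 0.17, 95% interval -0.27 to 0.50, adjusted p = 0.644, edgeR).

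**Figure D2:**
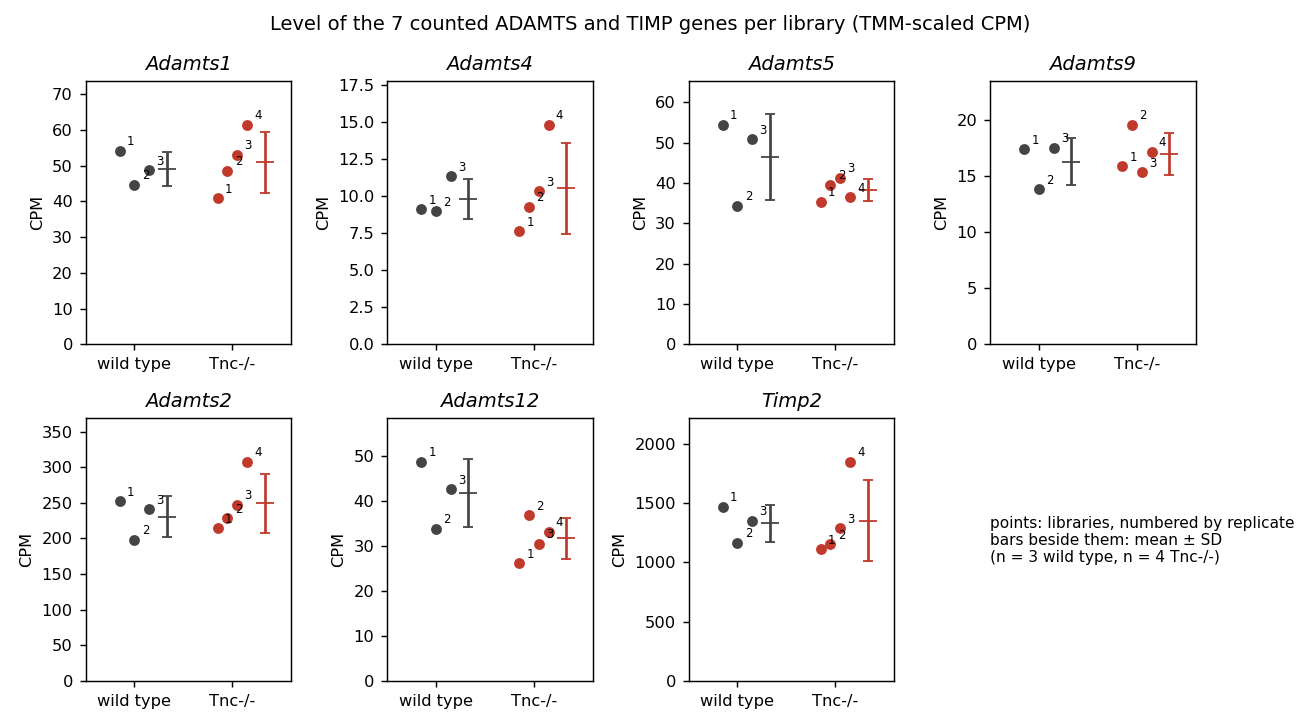
TMM-scaled CPM (vertical axes, linear from 0) of the 7 members with counts, 1 panel per gene; points are libraries numbered by replicate, and the bars beside them are mean ± SD (n = 3 wild type, n = 4 Tnc-/-). The groups overlap in every panel, and Tnc-/- library 4 is the highest point for Adamts1, Adamts2, Adamts4 and Timp2.

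By the edgeR test with adjustment over the 17791 genes tested, 0 of the 7 tested members were called, against 29.0% of all genes tested (10.3% higher and 18.7% lower in Tnc-/-). With no adjustment, 1 of 7 (Adamts12) had a p under 0.05, against 42.3% of all genes. DESeq2 with Benjamini-Hochberg adjustment (35.1% of all genes called) and limma voom (5.47%) also called 0 of 7, each with 1 at an unadjusted p under 0.05. Further settings that called 0 of 7 were Bonferroni adjustment in edgeR (0.124% of all genes called) and DESeq2 (9.29%), DESeq2 size factors (28.3%), upper-quartile scaling (27.6%), no filter (26.3%), a minimum of 10 counts (24.3%), the receptor sum as a covariate (2.45%), a replicate block (9.74%), and leaving out wild-type library 1 (64.2%), wild-type library 3 (12.3%) or a Tnc-/- library (14.5 to 17.6%). All wild-type receptor sums lay above all Tnc-/- ones, so the covariate fit cannot fully separate genotype from receptor sum. A call lost in that fit does not show that the genotypes are alike. The groups were free of overlap for 0 of 7 members, against 35.1% of all genes. Scaling by library totals, which moved the median of all genes from -0.001 to -0.22, called 30.4% of all genes and 2 members, Adamts5 (-0.50, adjusted p = 0.0449) and Adamts12 (-0.62, adjusted p = 0.0204), both lower in Tnc-/-; it also changed the split of all calls from 1830 higher and 3329 lower to 992 and 4410. In the main fit the intervals of Adamts1, Adamts2, Adamts9 and Timp2 did not reach a log2 fold change of 0.60 in either direction. That of Adamts4 reached 0.78. These intervals cover the spread between libraries and not the high receptor counts of wild-type libraries 2 and 3. With a receptor background subtracted, as described below, Adamts9 was at a log2 ratio of 1.17, so its interval does not bound a change.

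Per length, the 7 genes covered a wide range. Levels per kilobase of merged exon (RPKM, the CPM divided by exon length) in wild type were 341 ± 39.3 for Timp2, 24.7 ± 3.08 for Adamts2, 9.28 ± 0.90 for Adamts1, 4.31 ± 0.99 for Adamts5, 3.82 ± 0.69 for Adamts12, 2.04 ± 0.28 for Adamts4 and 1.08 ± 0.14 for Adamts9 (SD, n = 3). The order was the same in Tnc-/-, at 347 ± 87.6, 26.7 ± 4.42, 9.63 ± 1.62, 3.54 ± 0.25, 2.90 ± 0.41, 2.19 ± 0.64 and 1.13 ± 0.13 (SD, n = 4). Adamts5 and Adamts12 were neighbours in this order whose libraries overlapped in both genotypes, and Adamts12 and Adamts4 overlapped in Tnc-/-. Another gene's span holds 20.1% of the exon bases of Adamts4 and 24.8% of those of Adamts9; the effect of this on their levels was not tested.

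The ratio of the Timp2 level to the summed RPKM of the 6 ADAMTS members was 7.58, 7.74 and 7.36 in wild type and 7.33, 6.77, 7.15 and 8.61 in Tnc-/-, so the groups overlapped. Adamts2 made up 54.3, 54.8 and 54.8% of the ADAMTS sum in wild type and 58.9, 55.7, 57.2 and 59.7% in Tnc-/-. The Tnc-/- shares were all above the wild-type ones, an ordering that was seen after the values were computed and was not tested. Timp1, Timp3 and Timp4 are missing from the ratio because they were listed at 0, so it is no measure of all TIMP RNA.

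The members varied between libraries in 2 patterns, except Adamts9, which followed neither (r of 0.228 to 0.454 with the others). Across the 7 libraries the log2 CPM of Adamts1 and Adamts2 had a Pearson r of 0.917, Adamts1 and Timp2 of 0.903, Adamts2 and Timp2 of 0.931, and Adamts4 with these 3 of 0.827 to 0.861. Adamts5 and Adamts12 had an r of 0.843 with each other, and the remaining pairs lay between 0.069 and 0.454. These are descriptions over 7 libraries that share depth and composition. Tnc-/- library 4, highest for the first pattern, also had the highest sums of cartilage markers (3374 CPM, the other 6 libraries at 1204 to 2326) and of tendon and fibroblast markers (2276, the others at 1380 to 1796); the part of these cells in the pattern was not tested. Wild-type library 1 was highest for Adamts5 and Adamts12.

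**Figure D3:**
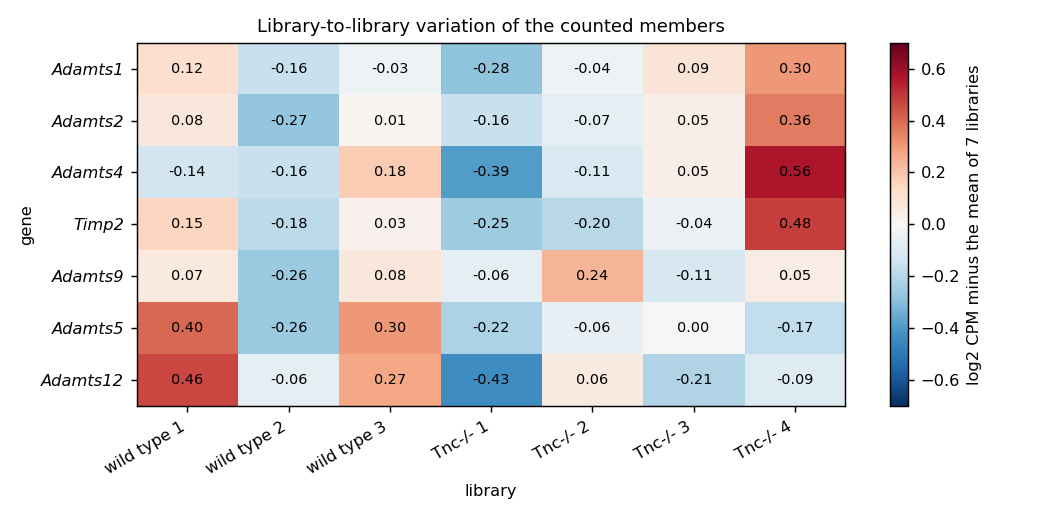
Log2 CPM of each member with counts (rows) in each library (columns), minus its mean over the 7 libraries; red is above and blue below the mean. The rows of Adamts1, Adamts2, Adamts4 and Timp2 peak in Tnc-/- library 4, and those of Adamts5 and Adamts12 in wild-type library 1. The row of Adamts9 peaks in Tnc-/- library 2.

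Of 12296 genes searched, the profiles nearest to Timp2 by Pearson r of log2(CPM + 1) over the 7 libraries were Ptgfrn (0.993), Htra3 (0.992) and Mxra8 (0.992), and 21 genes reached 0.95. The profiles nearest to Adamts12 were Aktip (0.982), Meox2 (0.965) and Arhgap29 (0.965), and 9 genes reached 0.95. Htra3 encodes a secreted serine protease, Mxra8 a matrix-associated membrane protein and Meox2 a homeobox transcription factor.

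The long members differed from most genes of like span in wild-type libraries 2 and 3. Over the 17468 tested genes with a span in the annotation (323 had none), the median of these libraries relative to library 1 was -0.34 on the log2 scale for spans up to 10 kb, 0.95 for 100 to 300 kb (lower quartile 0.16) and 2.85 for over 300 kb, with genes at 0 in library 1 ranked highest and genes at 0 in all wild-type libraries left out. Of the same genes, 7.06% of those with a span up to 10 kb were called lower in Tnc-/-, 44.7% of those of 100 to 300 kb and 78.5% of those over 300 kb. Adamts2 (205.5 kb), Adamts9 (170.8 kb) and Adamts12 (284 kb) are in the class of 100 to 300 kb and were not called. The mean of wild-type libraries 2 and 3 relative to library 1 was -0.20 for Adamts2, -0.15 for Adamts9 and -0.35 for Adamts12 on the same scale, each under the lower quartile of their span class, and -0.35 to 0.16 over the 6 ADAMTS members. Among the 13 other ADAMTS genes, the 6 called lower in Tnc-/- (spans of 114 to 313 kb) were at 1.38 to 3.61 on this scale, the 2 called higher (29.6 to 76.3 kb) at -0.52 to -0.37 and the 5 not called (21.3 to 195 kb) at -0.42 to 3.44.

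**Figure D4:**
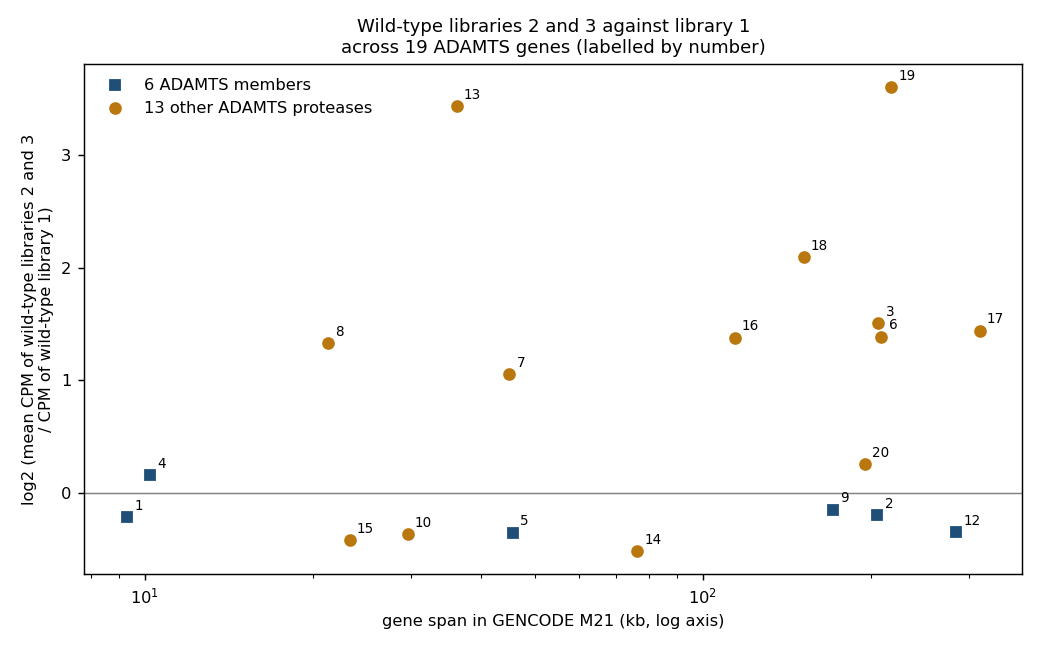
Mean CPM of wild-type libraries 2 and 3 relative to wild-type library 1 (log2, vertical axis) against gene span in kb (log axis) for 19 ADAMTS genes, labelled by number; squares are the 6 members and circles the 13 other proteases. Squares lie between -0.35 and 0.16, and the 6 circles called lower in Tnc-/- (3, 6, 16, 17, 18 and 19) lie at 1.38 or above.

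A measured background was set against each member. The receptor genes that overlap no other gene held 1.51 and 1.15 counts per kb of span in wild-type libraries 2 and 3, against 0.0834 in library 1 and 0.0239 to 0.0481 in Tnc-/-. At that density the span of Adamts12 would hold 2.59, 83.8 and 46.5% of its counts in wild-type libraries 1 to 3, and 1.06 to 1.92% in Tnc-/-. For Adamts9 the shares were 4.36, 123 and 67.8% in wild type, so the density is too high an estimate for this gene in library 2. For Adamts2 they were at most 10.4%, for Adamts5 13.2%, for Adamts4 11.4%, for Adamts1 2.07% and for Timp2 0.467%. With these counts subtracted, Adamts12 was at 47.5, 5.49 and 22.8 CPM in wild type against 25.6 to 36.4 in Tnc-/-, and its log2 ratio of group means turned from lower to higher, at 0.31. Adamts9 moved most, from a log2 fold change of 0.06 to a log2 ratio of 1.17, with 16.7, 0 and 5.66 CPM left in wild type against 15.1 to 19.3 in Tnc-/-. The Adamts9 ratio includes wild-type library 2, where the subtraction exceeded the whole count and the value was set to 0. Whether the receptor density holds inside Adamts12 was not tested, and the fold changes given for both genes rest on the counts as listed. Without wild-type libraries 2 and 3, which leaves 1 wild-type library assumed to vary like the Tnc-/- ones, Adamts12 was at -0.63 (adjusted p = 0.0765) and Adamts5 at -0.52 (adjusted p = 0.0818), and 0 members were called, against 4.45% of all genes.

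The other 13 ADAMTS proteases were all tested; 2 rose and 6 fell in Tnc-/- (10.3 and 18.7% of all genes), with a median log2 fold change of -0.99 against -0.001 over all genes tested. Adamts17, a protease needed for fibrillin matrix, was at 14.4, 44.4 and 34.2 CPM in wild type and 5.47 to 10.01 in Tnc-/- (log2 fold change -2.01, SE 0.37, adjusted p = 0.00814). Adamts18 was at 5.38, 24.0 and 21.9 against 1.54 to 3.60 (-2.59, SE 0.54, adjusted p = 0.0106), and Adamts16 at 6.02, 17.9 and 13.5 against 3.05 to 3.98 (-1.83, SE 0.41, adjusted p = 0.0127). In all 3 the wild-type libraries 2 and 3 were the high ones. Adamts10, another protease of fibrillin matrix, rose from 82.6, 55.3 and 72.7 CPM to 96.6 to 116 (0.55, SE 0.16, adjusted p = 0.0309), and Adamts14, a procollagen amino-propeptidase like Adamts2 that was picked out after its values were seen, rose from 24.6, 14.3 and 20.1 to 28.8 to 40.9 (0.75, SE 0.22, adjusted p = 0.0342). With 1 library left out, Adamts17 kept its call each time, Adamts18 and Adamts16 lost theirs without wild-type library 3 (adjusted p = 0.0508 and 0.0532), and Adamts10 and Adamts14 stayed called only without wild-type library 1 (adjusted p up to 0.0879 and 0.0999 without one of the others). Scaling by library totals or by upper quartile called 0 of the 13 higher and 6 lower, and limma voom called 0 of the 13. Over the 19 alternatives Adamts10 lay between 0.16 and 0.78 and was called in 5. The list's median was -0.46 without wild-type library 2. Without wild-type libraries 2 and 3, which leaves 4.45% of all genes called, 0 of these 13 genes were called and the median was 0.06, with Adamts17 at -0.92 (adjusted p = 0.0918), Adamts18 at -0.94 and Adamts16 at -0.80; with the receptor sum as a covariate 0 were called and the median was 0.20.

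**Figure D5:**
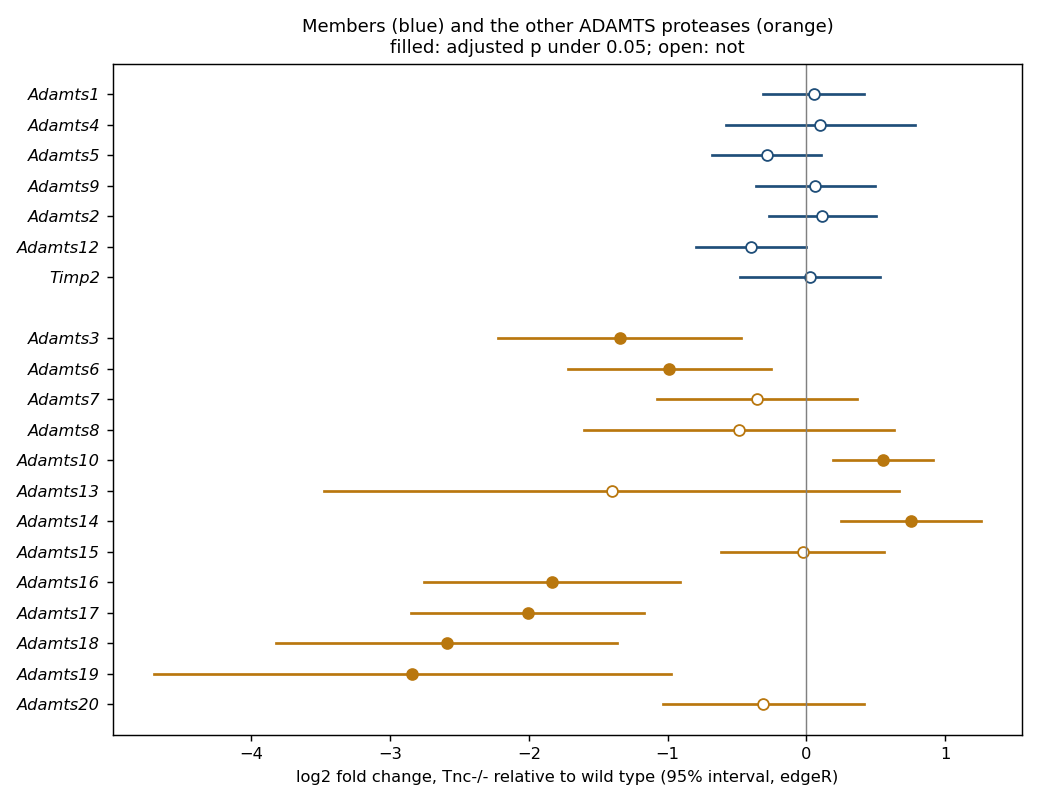
Log2 fold change of Tnc-/- relative to wild type (horizontal axis) with 95% intervals from edgeR for the 7 tested members (blue) and the 13 other ADAMTS proteases (orange); filled points have an adjusted p under 0.05. The members lie between -0.40 and 0.11, all open, and the filled orange points lie at -0.99 or below or at 0.55 or above.

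Among the 7 ADAMTS-like proteins, which share the ancillary domains but lack the protease, 2 rose and 2 fell (median -0.068), against 10.3% of all genes higher and 18.7% lower. Adamtsl4, a fibrillin-associated protein, was at 38.3, 32.9 and 38.2 CPM in wild type and at 44.6 to 76.3 in Tnc-/- (log2 fold change 0.67, SE 0.19, adjusted p = 0.029998). Adamtsl5 was at 56.6, 37.8 and 42.0 against 62.4 to 80.2 (0.59, SE 0.17, adjusted p = 0.0309). With the receptor sum as a covariate they were at 0.50 (adjusted p = 0.436) and 0.10 (adjusted p = 0.846). Their calls depended on the setting: Adamtsl4 was called in 7 of 19 alternatives and Adamtsl5 in 5, limma voom called 0 of the 7 genes, and with 1 library left out Adamtsl4 stayed called only without wild-type library 1 or Tnc-/- library 1 and Adamtsl5 only without wild-type library 1 (adjusted p up to 0.0936 and 0.115). Without wild-type libraries 2 and 3 neither was called (0.59, adjusted p = 0.175, and 0.27, adjusted p = 0.365); the 1 gene called there was Papln, named after its values were seen (1.58, adjusted p = 0.0464), whose groups overlapped over all libraries (1.81, 7.59 and 4.52 CPM in wild type against 4.47 to 6.197; 0.24, adjusted p = 0.751).

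Of the 9 genes for activation, uptake and other inhibition, 2 rose and 1, Pcsk5, fell (median -0.17), a count near the 29.0% of all genes called. Lrp1, the endocytic receptor that removes Adamts4, Adamts5 and TIMP complexes from the matrix, was at 602, 421 and 476 CPM in wild type and at 761, 725, 994 and 986 in Tnc-/- (log2 fold change 0.79, SE 0.20, adjusted p = 0.0207). Furin, the convertase that cuts the propeptide of many ADAMTS enzymes, was at 98.1, 61.8 and 67.7 against 110 to 143 (0.68, SE 0.19, adjusted p = 0.0271). With the receptor sum as a covariate Lrp1 was at 0.36 (adjusted p = 0.551) and Furin at 0.10 (adjusted p = 0.849). Lrp1 was called in 10 of 19 alternatives and Furin in 7. With 1 library left out, Lrp1 kept its call without wild-type library 1 or Tnc-/- library 1 or 2, and Furin only without wild-type library 1 (adjusted p up to 0.0803 and 0.111 without one of the others). Limma voom called Lrp1 (adjusted p = 0.0496) and not Furin (0.0634), and without wild-type libraries 2 and 3, 0 of the 9 were called.

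Of the 17 metalloproteinases that TIMPs bind, 14 were tested, 1 rose and 1 fell (median -0.006), a smaller share than the 29.0% of all genes called. Mmp8, the neutrophil collagenase, was at 68.7, 31.8 and 50.3 CPM in wild type and at 124, 72.8, 114 and 83.9 in Tnc-/- (log2 fold change 0.97, SE 0.28, adjusted p = 0.0326); the neutrophil marker sum was higher in Tnc-/- too, with 3 of 5 markers called higher, and its part in the Mmp8 difference was not tested. Mmp16, a membrane-bound metalloproteinase, was at 14.98, 66.9 and 35.5 against 9.63 to 11.3 (-1.89, SE 0.41, adjusted p = 0.0120). Its high values were in wild-type libraries 2 and 3. With the receptor sum as a covariate the log2 fold change of Mmp16 was 0.06, and neither Mmp16 nor Mmp8 was called. Over the 19 alternatives Mmp8 lay between 0.26 and 1.36. Mmp16 was called with each single library left out, and Mmp8 only without wild-type library 1 or Tnc-/- library 2 (adjusted p up to 0.110 without one of the others); limma voom called neither. Without wild-type libraries 2 and 3, which leaves 1 wild-type library, Mmp16 was at -0.52 and Mmp8 at 0.52. Mmp3, named after its values were seen, was at -0.93 there and at -0.53 over all libraries (adjusted p = 0.0943, edgeR). Without wild-type library 1, 3 of 15 were called higher and 2 lower, in a fit that called 64.2% of all genes.

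Of the 14 ADAMTS substrates, 0 rose and 2 fell (median 0.020). Over all genes 10.3% were higher and 18.7% lower, so the count is not above that share. DESeq2 with Benjamini-Hochberg adjustment called 3 lower (35.1% of all genes called) and library totals 4 lower (30.4%). Both added Dcn, named after its values were seen, and library totals also added Vcan. Dcn had 3056, 2198 and 2905 CPM in wild type and 1868 to 2100 in Tnc-/- (-0.44, adjusted p = 0.102, edgeR). Reln, a secreted glycoprotein best known from brain, was at 23.1, 85.7 and 69.4 CPM in wild type and 13.4 to 17.5 in Tnc-/- (log2 fold change -1.96, adjusted p = 0.00877), and Ncan, a proteoglycan of brain, was at 0.746, 6.73 and 4.95 against 0 to 0.588 (-4.23, adjusted p = 0.0250). Both were highest in wild-type libraries 2 and 3. With the receptor sum as a covariate Reln was at -0.07 and Ncan at -0.81, neither called. That fit cannot fully separate genotype from the receptor sum. Reln was called with each single library left out and Ncan only without wild-type library 1 or Tnc-/- library 1 (adjusted p up to 0.0834 without one of the others). Limma voom called 0 of the 14, as did the fit without wild-type libraries 2 and 3.

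Of the 13 inducing cytokines and receptors, 12 were tested, 2 rose and 0 fell (median -0.11), against 10.3% of all genes higher and 18.7% lower. The split depended on the setting: DESeq2 with Benjamini-Hochberg adjustment and upper-quartile scaling each called 2 higher and 2 lower, and library totals 1 higher and 2 lower, the lower ones being Tgfbr1 and Runx2. Without wild-type library 1, 5 were called higher and 3 lower, in a fit that called 64.2% of all genes. Tgfb1, which induces Timp and collagen genes, was at 130.1, 76.0 and 90.6 CPM in wild type and at 146 to 182 in Tnc-/- (log2 fold change 0.77, SE 0.19, adjusted p = 0.0203). Il1b, an inflammatory cytokine that induces aggrecanases in cartilage, was at 6.08, 4.55 and 2.84 against 7.06 to 14.4 (1.29, SE 0.39, adjusted p = 0.0375). Both moved with the higher neutrophil and erythroid marker sums of Tnc-/-, whose part was not tested, and limma voom called neither. With the receptor sum as a covariate neither was called. Over the 19 alternatives Tgfb1 lay between 0.16 and 1.11 and Il1b between 0.75 and 1.67. With 1 library left out, Tgfb1 stayed called only without wild-type library 1 or Tnc-/- library 2, and Il1b only without wild-type library 1 or Tnc-/- library 4 (adjusted p up to 0.0881 and 0.124 without one of the others). Without wild-type libraries 2 and 3 neither was called, and the 1 of 13 tested genes called was Tgfbr1, named after its values were seen (-0.71, adjusted p = 0.0285; -0.44, adjusted p = 0.0521 over all libraries).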

How the data were processed

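Whole shoulder joint RNA of 3 wild-type and 4 Tnc-/- mice was sequenced after poly(A) capture with a NEBNext Ultra kit, per the labels' protocols. The authors deposited 1 table of raw counts by gene for each library; the submitters' processing notes name FastQC 0.11.9, HISAT2 2.2.1, HTSeq 2.0.2, DESeq2 1.38.3 and the build GRCm39 (mm39), with no settings, so the strand and overlap settings of counting are not given in the sources used here. Rows that name no gene held 30.1 to 32.7% of the reads listed in the Tnc-/- files (ambiguous reads 11.4 to 11.6%) and were left out; the wild-type files listed 56980 identifiers and the Tnc-/- files 56941.

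The 56854 identifiers in all files (29121 with a count) entered the test, run in edgeR 4.0.16 under R 4.3.3 (TMM, filterByExpr, robust quasi-likelihood F test, Benjamini-Hochberg over the 17791 genes kept, threshold 0.05). Groups came from the genotype in the labels. The labels do not say more about how the mice were kept, so p-values measure the spread between these mice. DESeq2 1.42.0, limma 3.58.1 (voom), other scalings and filters, a receptor covariate, a replicate block and leaving out libraries were the alternatives; the script was tested on simulated data. Gene spans and overlaps came from GENCODE M21 (GRCm38), matched by Ensembl identifier with no coordinates carried over, and promoters from RefSeq (GRCm38.p6). Likeness used log2(CPM + 1) and a mean of at least 5 CPM. All members were named; from each list, genes past the threshold with groups free of overlap were named (at most 4, by p; the 2 smallest p where fewer than 2 qualified). The members and lists were chosen with earlier results of these data known.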

Additional observations from a re-analysis of the deposited data

How the results depend on the processing

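With 19 alternatives, the count of members called (0) became 2 with library totals and ranged from 0 to 1 when 1 library was left out (1 without wild-type library 2); the other alternatives gave 0. The count of other ADAMTS proteases called (8) was 0 with edgeR and Bonferroni adjustment, 1 with DESeq2 and Bonferroni adjustment, 0 with limma voom, 0 with the receptor covariate, 0 without wild-type libraries 2 and 3, and 1 to 9 when 1 library was left out. The count of all genes (5159) was 22, 1653, 973, 435 and 825 in the same order, and 2229 to 14113 when 1 library was left out; the highest came without wild-type library 1 and the lowest without wild-type library 3. Limma voom called 707 higher and 266 lower. The fit with the replicate block called 0 members, 2 other ADAMTS proteases and 1713 of all genes. Whether the replicate numbers pair the mice is not given in the sources used here. Same-numbered libraries had correlations of deviations of 0.0076, 0.117 and -0.0002, and not every library correlated best with its own number. So few pairs cannot exclude a pairing.

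Adamts5 and Adamts12 were lower in Tnc-/- in all 19 alternatives (-0.66 to -0.07, called in 2, and -0.76 to -0.18, called in 1), except that Adamts12 was at 0.31 with receptor density subtracted, an alternative chosen after seeing the data. With the same subtraction Adamts9 was at 1.17, where the subtracted density is 123% of its count in wild-type library 2 and the rest was set to 0. The near-zero fold changes of the other 5 members changed sign, and in the 19 alternatives were at most 0.22 for Adamts1, 0.21 for Adamts9, 0.28 for Adamts2 and 0.20 for Timp2 (without wild-type library 1) and 0.22 for Adamts4 (without wild-type library 3). Library totals gave -0.17 for Adamts1, -0.13 for Adamts4, -0.16 for Adamts9, -0.11 for Adamts2 and -0.20 for Timp2. Upper-quartile scaling gave -0.013 for Adamts1, -0.0037 for Adamts9 and -0.041 for Timp2, and a minimum of 10 counts in every library gave -0.027, -0.017 and -0.054. The receptor covariate gave -0.19 for Adamts1, -0.10 for Adamts9, -0.14 for Adamts2 and -0.26 for Timp2, and 0.058 for Mmp16. The replicate block gave -0.056 for Adamts1, -0.12 for Adamts4, -0.0014 for Adamts2 and -0.16 for Timp2. DESeq2, and edgeR with its size factors, gave -0.018 for Timp2. Without wild-type library 2, Adamts1 was at -0.028, Adamts9 at -0.055 and Timp2 at -0.076; without Tnc-/- library 2, Adamts9 was at -0.015. Without Tnc-/- library 4, Adamts1 was at -0.052, Adamts4 at -0.11, Adamts2 at -0.0065 and Timp2 at -0.17. Without wild-type libraries 2 and 3, Adamts1 was at -0.093, Adamts9 at -0.041, Adamts2 at -0.022 and Timp2 at -0.13. The cause of these changes was not tested.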
